A study of Mus musculus with 48 samples.

Results

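Adult mouse hepatocytes and mature pancreatic beta cells were compared for the histone mark H3K27me3 at 23177 genes, which were all gene symbols of the deposited table except those of 1289 microRNAs, snoRNAs and scaRNAs, out of 24466 symbols in all. The hepatocytes came from the liver of 8-week-old adults, and no sort is named in their labels. The beta cells came from 8-week-old adults and were sorted by flow cytometry as positive for the Ins-RFP reporter, a red fluorescent marker of insulin expression. The general protocol in the labels describes B6C3F1 females bred to C3H, Pdx1-eGFP or Ins-RFP males, and the donors' sex and the cross behind the adult hepatocytes were not given in the sources used here. Each cell type had 2 chromatin immunoprecipitation (ChIP) libraries against H3K27me3 and 2 input libraries. Cells of the definitive endoderm at e8.25, which were sorted for the ENDM1 antigen, were profiled the same way and are given here only as a side value.

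H3K27me3 is trimethylation of lysine 27 of histone H3. It is written by Polycomb repressive complex 2 through its Ezh1 or Ezh2 subunit and is typically spread over silent developmental genes, where it helps keep them off through cell division. Hepatocytes make most plasma proteins, dispose of ammonia, synthesize bile acids and detoxify drugs, whereas beta cells sense glucose, process proinsulin and release insulin from granules. Both descend from the embryonic endoderm.

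The value of a gene was its ratio of H3K27me3 ChIP to input in 1 profile per cell type, quantile-normalized by the authors. A ratio therefore gives a gene's place among the genes of its own cell type, and the total amount of the mark cannot be compared between cell types. A lower ratio cannot be split into fewer cells carrying the mark and less mark per cell. There was no replicate value and the read depth is unknown, so no test, standard deviation or interval could be given, and every difference compares 2 profiles without a replicate check. Differences are hepatocytes minus beta cells on the log2(ratio + 0.0711) scale, which understates the change of genes with low ratios. A gene is called higher or lower in hepatocytes only when it differed by at least 1 log2 unit, which is 2-fold on that scale, and also by at least 25 points of rank percentile among all genes. The rank limit has a consequence for genes with much of the mark. A gene at or above the 75th percentile in both cell types cannot be called.

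By these limits 2478 genes, or 10.7%, were higher in hepatocytes and 2249 genes, or 9.70%, were lower, together 4727 genes or 20.4%. The median difference over all genes was -0.05, and the Spearman correlation of the ratios across genes was 0.52, a description only since genes are not independent replicates. The higher genes had median ratios of 1.63 in hepatocytes against 0.433 in beta cells, and the lower genes 0.433 in hepatocytes and 1.47 in beta cells. Of the higher genes, 1643 reached the 75th percentile in hepatocytes, and of the lower genes 1324 reached it in beta cells. The remaining called genes reached it in neither cell type, so a call alone does not mean that a gene was highly marked in either. Differences of at least 2 log2 units were reached by 807 higher and 602 lower genes, and of at least 4 log2 units by 69 higher and 33 lower genes. In endoderm, 48.1% of the higher genes stood at or above the 75th percentile, against 23.7% of the lower genes and, by definition, 25% of all genes. The lower genes were thus near the share over all genes. Without the stretch of X-linked genes described further on, the share was 37.7% of the higher genes, 23.8% of the lower genes and 22.6% of all genes.

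Most markers of the labelled cell types had less of the mark in their own cells than in the other cell type, and an insulin gene was an exception. Of 8 hepatocyte markers, 6 were lower in hepatocytes: Alb (0.400 and 0.920 in hepatocytes and beta cells), Apoa1 (0.254 and 1.40), Fga (0.103 and 0.912), Fgb (0.360 and 2.15), Cps1 (0.181 and 1.36) and Cebpa. Ttr, at 0.118 in hepatocytes against 0.430 in beta cells, and Hnf4a, at 0.465 in hepatocytes against 0.749 in beta cells, were not called. Of 8 beta cell markers, 5 were higher in hepatocytes: Pdx1, Nkx6-1, Mafa (6.73 and 0.684), Pcsk1 (1.17 and 0.319) and Iapp. The other 3 were not called, and the insulin genes are among them. Ins1, an insulin gene, had ratios of 1.38 in hepatocytes against 1.56 in beta cells, which put it at percentile 82.2 in the cells that make insulin. Ins2, the other insulin gene, had ratios of 1.04 in hepatocytes against 0.593 in beta cells, and the glucose transporter gene Slc2a2, which liver and beta cells both use, was low in both at 0.240 and 0.457. Glucagon, somatostatin and pancreatic polypeptide genes of the other islet cells were highly marked in both, as described with the hormone list.

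**Figure D1:**
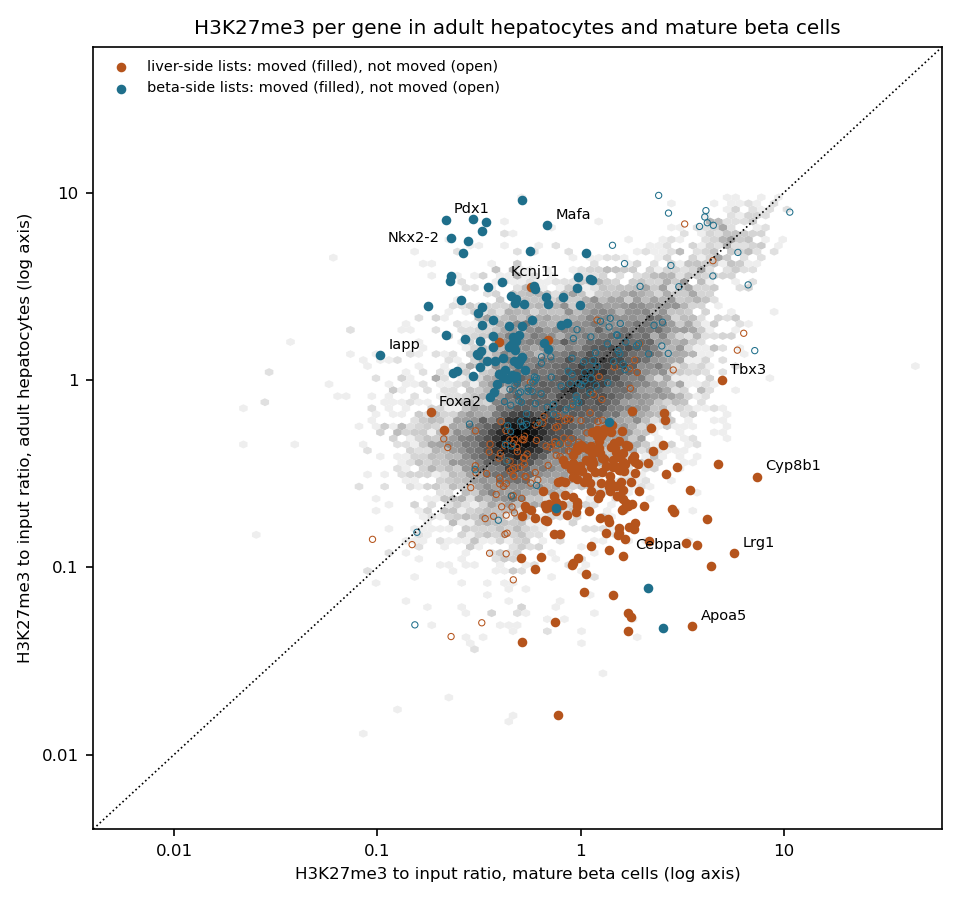
Ratio of H3K27me3 to input in adult hepatocytes (vertical, log axis) against mature beta cells (horizontal, log axis), with grey hexagons shaded by the number of genes and the dotted line at equal ratios. Members of the liver-side lists lie mostly below the line and members of the beta-side lists mostly above it. Filled points were called and open points were not, and 2 of 23177 genes lie outside the axes.

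The factors that run the hepatocyte programme were mostly lower in hepatocytes, with 14 of 25 lower (56.0%) and Foxa2 alone higher. The median difference was -1.28, beside -0.05 over all genes. Hhex, a homeobox factor needed for the liver bud, had ratios of 0.101 in hepatocytes against 4.37 in beta cells, and 3.38 in endoderm. Cebpa, a factor of hepatocyte metabolism, had ratios of 0.131 in hepatocytes against 3.76 in beta cells, and 11.3 in endoderm. Both genes were therefore highly marked in endoderm and in beta cells and near the bottom of the hepatocyte profile, at percentiles 1.56 and 2.19. Nr0b2, a nuclear receptor that restrains bile acid synthesis, stood at 0.161 in hepatocytes against 1.83 in beta cells. Onecut1, which acts in both liver and pancreas development, stood at 0.314 in hepatocytes against 2.63 in beta cells, and Creb3l3, a membrane-bound factor of the fasting response, at 0.317 in hepatocytes against 1.85 in beta cells. Tbx3, a T-box factor of the embryonic liver, kept a ratio of 0.998 in hepatocytes, against 4.96 in beta cells.

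The exception among the hepatic factors was Foxa2, a forkhead factor that opens chromatin in liver and pancreas alike. Its ratios were 0.676 in hepatocytes against 0.183 in beta cells, with 1.98 in endoderm, a difference of 1.56. Its relative Foxa1 went the other way, at 1.78 in hepatocytes against 6.35 in beta cells, a difference of -1.80 that missed the rank limit because the gene lay in the upper quartile of both profiles. Foxa3 was low in both, at 0.537 and 0.429. Rxra and Prox1, which beta cells or their precursors also express, were likewise low in both and not called, with hepatocyte ratios of 0.321 and 0.187 and beta cell ratios of 0.598 and 0.373. These uncalled members, and the other uncalled members named below, were picked after their values were seen.

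The promoters of the factors with the largest differences are shown because a Polycomb-marked gene is often rich in CG dinucleotides at its start. Each window runs from 250 bases before to 50 bases after the gene's start (RefSeq, GRCm38.p6), in lower case with every CG in capitals. The windows are given for Hhex (chr19:37434591-37434890, plus strand) and Cebpa (chr7:35119043-35119342, plus strand), both lower in hepatocytes.
Hhex: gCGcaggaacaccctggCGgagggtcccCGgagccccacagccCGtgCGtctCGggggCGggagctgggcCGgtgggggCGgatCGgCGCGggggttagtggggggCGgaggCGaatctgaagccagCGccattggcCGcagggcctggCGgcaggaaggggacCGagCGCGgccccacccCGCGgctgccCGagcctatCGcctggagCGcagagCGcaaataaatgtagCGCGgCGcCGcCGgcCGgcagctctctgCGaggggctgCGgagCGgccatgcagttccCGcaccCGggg
Cebpa: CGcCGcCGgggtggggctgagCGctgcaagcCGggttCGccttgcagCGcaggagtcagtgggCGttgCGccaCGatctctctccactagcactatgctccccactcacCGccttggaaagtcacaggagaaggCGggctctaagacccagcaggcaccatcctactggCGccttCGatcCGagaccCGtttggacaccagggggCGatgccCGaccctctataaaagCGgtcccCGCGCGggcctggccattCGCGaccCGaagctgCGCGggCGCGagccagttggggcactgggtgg
The Hhex window held 37 CG dinucleotides, and 5.58% of all 32851 promoter windows of this length held as many or more. The Cebpa window held 29, a number reached by 12.9% of windows, and it also held the letters TATAAA, found on either strand in 13.6% of windows.

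The factors of the islet programme showed the opposite direction, with 14 of 30 higher in hepatocytes (46.7%) and 1 lower, and a median difference of 1.16. Their median ratio was 4.75 in hepatocytes, 3.93 in endoderm and 0.752 in beta cells, so the hepatocyte level was the nearer to the endoderm level. Pdx1, the homeobox factor of pancreas formation and insulin transcription, had ratios of 7.18 in hepatocytes against 0.217 in beta cells, and 6.39 in endoderm. Nkx2-2 and Nkx6-1, homeobox factors of beta cell identity, had ratios of 5.72 in hepatocytes against 0.229 in beta cells and of 6.27 in hepatocytes against 0.327 in beta cells. Pax6 stood at 4.74 in hepatocytes against 0.265 in beta cells, and Insm1, a zinc finger factor of endocrine differentiation, at 9.11 in hepatocytes against 0.516 in beta cells. All of these genes were in the top 5% of the hepatocyte profile and below the median of the beta cell profile.

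Sox4, a factor used in many progenitors, differed from this group in its endoderm value. It stood at 7.28 in hepatocytes against 0.295 in beta cells, with 0.303 in endoderm, so the hepatocyte profile was the only profile of the 3 in which it was highly marked. Mafa, a factor of mature mouse beta cells, stood at 6.73 in hepatocytes against 0.684 in beta cells, with 317 in endoderm, a difference of 3.17.

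Among the 15 endocrine factors that were not called, 10 were at or above the 75th percentile in both cell types and could not have been. Neurog3, which starts endocrine differentiation in the embryo, was marked at 8.02 in hepatocytes against 4.14 in beta cells. Neurod1 was marked at 4.18 in hepatocytes against 1.65 in beta cells, and Mnx1 at 5.24 in hepatocytes against 1.44 in beta cells, which left a sizeable ratio in the beta cells that express these factors. The promoter windows of Pdx1 (chr5:147269847-147270146, plus strand) and Sox4 (chr13:28953650-28953949, minus strand), both higher in hepatocytes, are shown for comparison with those of the hepatic factors, with CG in capitals.
Pdx1: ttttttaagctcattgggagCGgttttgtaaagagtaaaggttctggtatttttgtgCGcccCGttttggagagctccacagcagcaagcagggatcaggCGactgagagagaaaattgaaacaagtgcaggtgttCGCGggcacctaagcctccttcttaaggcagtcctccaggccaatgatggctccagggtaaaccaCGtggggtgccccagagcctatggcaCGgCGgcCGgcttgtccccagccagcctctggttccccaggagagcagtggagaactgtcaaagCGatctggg
Sox4: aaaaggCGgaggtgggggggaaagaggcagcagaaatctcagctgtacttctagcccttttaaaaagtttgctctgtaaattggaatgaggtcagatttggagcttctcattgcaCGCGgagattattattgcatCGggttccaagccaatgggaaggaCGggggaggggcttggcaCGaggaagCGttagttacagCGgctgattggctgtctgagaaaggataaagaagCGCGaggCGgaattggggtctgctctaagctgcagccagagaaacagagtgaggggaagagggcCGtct
These windows held 11 and 12 CG dinucleotides, numbers reached by 41.4% and 39.6% of windows, which are fewer than in Hhex or Cebpa. The Pdx1 and Sox4 windows did not hold the letters TATAAA. Each promoter window shown was also searched on both strands for the letters of factor sites, and held none of them. The forkhead letters TGTTTAC occur in 3.65% of all windows. The letters CAAAGTCC of hepatocyte nuclear factor HNF4 occur in 1.42% of windows, the cyclic AMP response letters TGACGTCA in 1.79% and the homeobox letters CTAATG in 7.36%.

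Genes for proteins that hepatocytes pour into the blood were mostly lower in hepatocytes. Of 30 carrier and acute-phase genes, 20 were lower and 1 was higher, and the median difference was -1.41. Lrg1, an acute-phase glycoprotein, had ratios of 0.119 in hepatocytes against 5.71 in beta cells, and 7.42 in endoderm. Saa1, serum amyloid A, stood at 0.180 in hepatocytes against 4.19 in beta cells, and Serpina3k, a protease inhibitor of rodent plasma, at 0.0458 in hepatocytes against 1.71 in beta cells. Ahsg, which encodes fetuin, stood at 0.204 in hepatocytes against 2.81 in beta cells, and Trf, transferrin, at 0.149 in hepatocytes against 1.52 in beta cells. Among these genes, which were picked from the called members, beta cell ratios ranged from moderate to very high. Their hepatocyte ratios were all at or under 0.204, which does not hold for every carrier gene, since Alb, described above, stood higher. The member that ran the other way was Serpina7, thyroxine-binding globulin, at 1.59 in hepatocytes against 0.396 in beta cells, an X-linked gene.

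The Lrg1 window (chr17:56121897-56122196, minus strand) shows a highly marked gene with few CG dinucleotides at its start.
Lrg1: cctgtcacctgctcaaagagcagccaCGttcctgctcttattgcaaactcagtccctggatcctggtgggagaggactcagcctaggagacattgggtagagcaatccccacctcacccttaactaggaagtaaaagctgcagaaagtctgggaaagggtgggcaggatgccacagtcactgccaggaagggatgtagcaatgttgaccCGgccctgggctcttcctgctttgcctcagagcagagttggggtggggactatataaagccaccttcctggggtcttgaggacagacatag
It held 2 CG dinucleotides, a number that 85.9% of windows reached, and the letters TATAAA. The windows of the carrier and acute-phase genes had a median of 3 CG over the 24 of 30 genes with a window, against 19 over 21 of 25 hepatic transcription factors and 7 over all windows. The mark therefore differed between the cell types at genes with CG-poor as well as CG-rich starts. The same count over all 23177 genes is void, because only 78.3% of them had a window.

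Of 22 apolipoprotein and lipoprotein genes, 15 were lower and none higher, and the median difference of -1.82 was the lowest of the 13 liver-side lists. Apoa5, which promotes triglyceride clearance, had ratios of 0.0484 in hepatocytes against 3.55 in beta cells, and 0.403 in endoderm. Apoc1 stood at 0.198 in hepatocytes against 2.89 in beta cells and Apoc3 at 0.115 in hepatocytes against 1.61 in beta cells. Angptl8, a secreted regulator of lipoprotein lipase, had a hepatocyte ratio of only 0.0163 and a beta cell ratio of 0.770. Apoe, which is also made outside the liver, stood at 0.345 in hepatocytes against 2.97 in beta cells.

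Clotting factors were lower at 16 of 22 genes, again with none higher, and the median difference was -1.47. The fibrinogen genes were all lower. Fgg had ratios of 0.0569 in hepatocytes against 1.70 in beta cells, Fga of 0.103 in hepatocytes against 0.912 in beta cells and Fgb of 0.360 in hepatocytes against 2.15 in beta cells. Plg, plasminogen, stood at 0.231 in hepatocytes against 1.62 in beta cells, and F5, coagulation factor V, at 0.233 in hepatocytes against 1.22 in beta cells. Complement genes were lower at 12 of 18, with a median difference of -1.54. Mbl2, a mannose-binding lectin, stood at 0.205 in hepatocytes against 1.63 in beta cells, Cfb at 0.183 in hepatocytes against 1.25 in beta cells and C3, the central component, at 0.363 in hepatocytes against 1.86 in beta cells.

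Urea cycle and amino acid genes were lower at 22 of 37 and higher at 1, and the median difference was -1.38. Nags makes the activator of the first urea cycle enzyme, and its ratios were 0.358 in hepatocytes against 4.75 in beta cells, with 6.75 in endoderm. Cps1, that first enzyme, stood at 0.181 in hepatocytes against 1.36 in beta cells, and Arg1, the last, at 0.105 in hepatocytes against 0.916 in beta cells. Prodh, proline dehydrogenase, stood at 0.172 in hepatocytes against 1.85 in beta cells. Otc, the urea cycle gene on the X chromosome, was the exception at 1.63 in hepatocytes against 0.693 in beta cells. A hepatocyte gene that works in the same cycle as Cps1 and Arg1 was therefore more marked in hepatocytes than in beta cells.

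Gluconeogenesis and glycogen genes were lower at 11 of 17 with none higher. Pck1, which commits carbon to glucose synthesis, had ratios of 0.137 in hepatocytes against 2.17 in beta cells, and Slc37a4, the glucose 6-phosphate transporter, 0.0716 in hepatocytes against 1.44 in beta cells. Gckr, a regulatory protein of hepatocyte glucose metabolism, stood at 0.416 in hepatocytes against 2.27 in beta cells. Fatty acid oxidation and ketogenesis genes were lower at 13 of 24, led by Fabp1, the liver fatty acid binding protein, at 0.142 in hepatocytes against 1.65 in beta cells, and Slc27a2, a fatty acid transporter, at 0.165 in hepatocytes against 1.73 in beta cells. Fgf21, a fasting hormone of the liver, stood at 0.267 in hepatocytes against 1.38 in beta cells.

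Bile acid genes were lower at 13 of 22. Cyp8b1, which sets the cholic acid share of bile acids, had the highest beta cell ratio of the liver-side members named here, 7.37, beside 0.305 in hepatocytes and 0.396 in endoderm. Cyp7a1, the rate-limiting enzyme, stood at 0.162 in hepatocytes against 1.54 in beta cells, and Slc10a1, the bile acid importer, at 0.151 in hepatocytes against 0.790 in beta cells. Drug oxidation and conjugation genes were lower at 20 of 39 and higher at 1. Gsta3, a glutathione transferase, stood at 0.129 in hepatocytes against 1.13 in beta cells, and Cyp2d22 at 0.113 in hepatocytes against 0.967 in beta cells. Sult1d1, a sulfotransferase, was the exception at 0.539 in hepatocytes against 0.213 in beta cells.

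Iron and heme genes were lower at 8 of 15. Hfe2, hemojuvelin, which controls hepcidin, had ratios of 0.260 in hepatocytes against 3.44 in beta cells. Fth1, ferritin heavy chain, a gene that nearly all cells use, stood at 0.0512 in hepatocytes against 0.748 in beta cells, with 0.0597 in endoderm. The beta cell ratio of Fth1 was thus the highest of the 3, but it stood only at percentile 52.3 of its profile. Growth hormone and insulin-like growth factor genes were lower at 7 of 16, led by Igfbp1 at 0.134 in hepatocytes against 3.30 in beta cells, and including Igf1, the circulating growth factor, at 0.218 in hepatocytes against 1.79 in beta cells. Igf1r, the receptor of this factor, of which mature hepatocytes are known to carry little, was the exception at 3.14 in hepatocytes against 0.567 in beta cells, with 0.591 in endoderm.

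**Figure D2:**
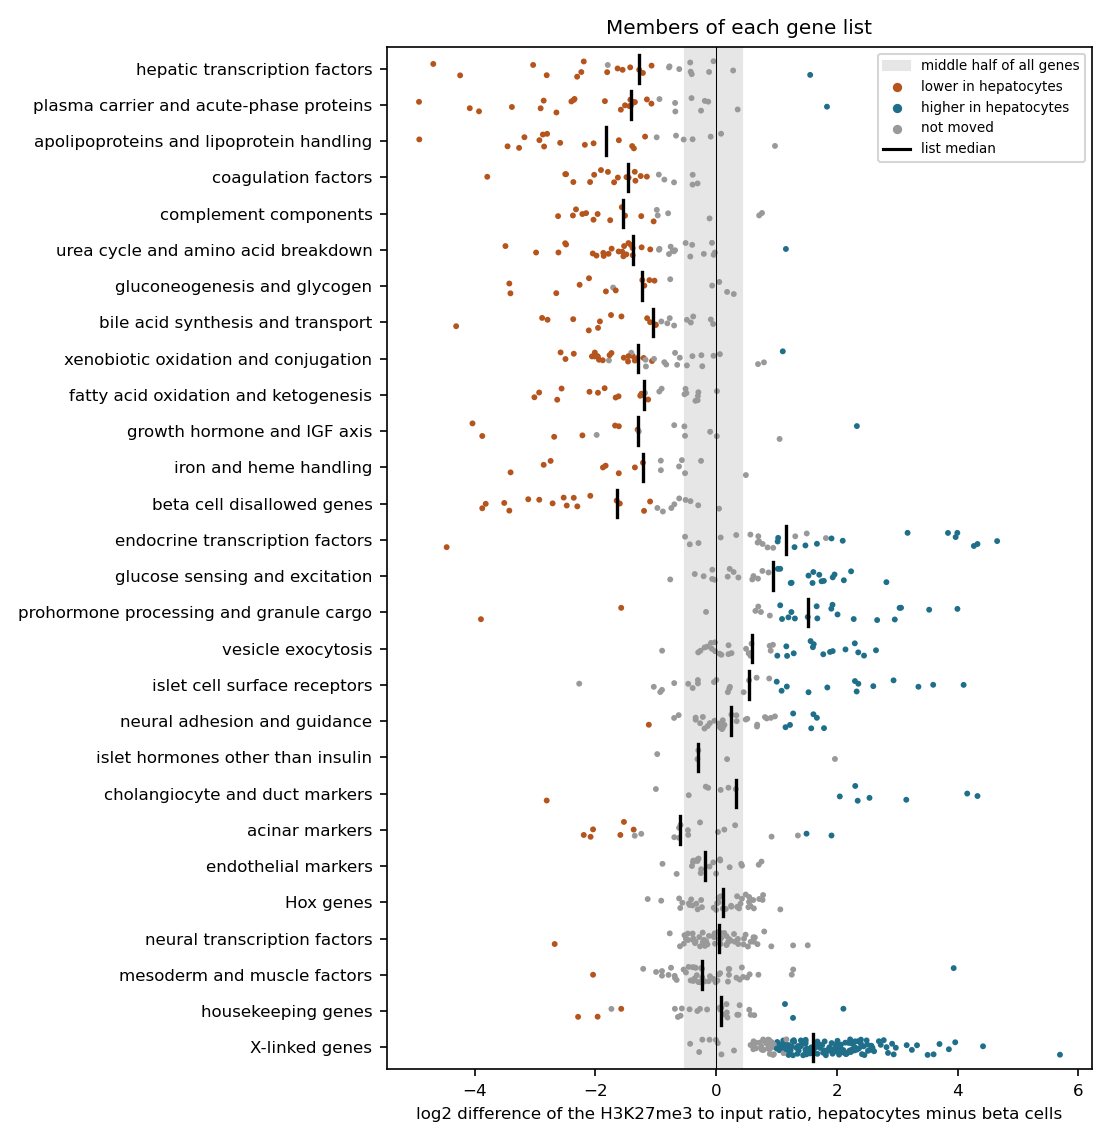
Log2 difference of the H3K27me3 to input ratio, hepatocytes minus beta cells (horizontal), for every measured member of 28 of the 40 gene lists. Each point is a gene, coloured by its call, black bars are list medians, and the grey band holds the middle 50% of all genes, from -0.51 to 0.43. The medians of the liver-side lists lie left of the band. Those of the endocrine factor, glucose sensing, granule, exocytosis and receptor lists lie to its right, and those of the islet hormone, neural adhesion, Hox and neural factor lists lie within it.

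Taking every liver-side gene once, 171 of 288 were lower in hepatocytes (59.4%) and 5 were higher, with a median difference of -1.35. These shares, like the counts of the separate liver-side lists above, stand beside 9.70% lower and 10.7% higher over all genes. The 5 exceptions were Foxa2, Igf1r and Sult1d1 and the X-linked genes Serpina7 and Otc. The remaining 112 genes were not called. Of those at the limits, Slco1a1 (0.374 and 0.819) and Akr1d1 (0.529 and 1.13, a difference of -1.01) were just inside, while Apoc2 at -0.99 and C9 at -0.98 were just outside. Igfbp6 differed by -1.28 and was left out by the rank limit alone.

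The genes that couple glucose to insulin release were higher in hepatocytes at 15 of 30, with none lower, and the median difference was 0.94. The pore gene of the ATP-sensitive potassium channel, Kcnj11, stood at 3.35 in hepatocytes against 0.413 in beta cells, and Abcc8, its sulfonylurea receptor subunit, at 1.62 in hepatocytes against 0.320 in beta cells. Cacnb3, a calcium channel subunit, stood at 3.06 in hepatocytes against 0.595 in beta cells, and Kcnh6, a potassium channel, at 2.77 in hepatocytes against 0.674 in beta cells. Both parts of the ATP-sensitive channel thus differed in the same direction, while Slc2a2, the glucose transporter gene shared with hepatocytes, did not pass the limits. Slc30a8, the granule zinc transporter, at 0.767 in hepatocytes against 0.422 in beta cells, and G6pc2, at 0.733 in hepatocytes against 0.453 in beta cells, were not called either.

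Prohormone processing and granule genes had the highest share of the beta-side lists, with 18 of 25 higher and 2 lower, and a median difference of 1.52. Resp18, an endocrine granule protein, had ratios of 3.38 in hepatocytes against 0.228 in beta cells. Iapp, the amyloid peptide released with insulin, stood at 1.36 in hepatocytes against 0.103 in beta cells, and its endoderm ratio was 0.369. Chga and Chgb, granins that build granules, stood at 2.67 in hepatocytes against 0.257 in beta cells and at 2.47 in hepatocytes against 0.329 in beta cells. Vgf, another granule peptide precursor, stood at 4.88 in hepatocytes against 0.566 in beta cells, and the X-linked Pcsk1n, an inhibitor of the convertase Pcsk1, at 5.50 in hepatocytes against 0.278 in beta cells. The endoderm ratio of Chga was 0.796, and for both Iapp and Chga the hepatocyte ratio exceeded those of the other two profiles. The exceptions were Erp27, an endoplasmic reticulum protein, at 0.0774 in hepatocytes against 2.14 in beta cells, and Nnat, an imprinted gene, at 0.206 in hepatocytes against 0.754 in beta cells.

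Vesicle exocytosis genes were higher at 15 of 37, beside 10.7% over all genes, with none lower, and the median difference was 0.59. Cplx2, a complexin that acts on the fusion machinery, had ratios of 1.73 in hepatocytes against 0.217 in beta cells, Syt7, a calcium sensor of insulin release, 2.10 in hepatocytes against 0.372 in beta cells, and Doc2a 2.81 in hepatocytes against 0.456 in beta cells. Surface receptors of islet cells were higher at 13 of 31, beside the same 10.7% over all genes. Gpr27 had ratios of 6.99 in hepatocytes against 0.341 in beta cells and Adra2a, the adrenergic receptor that restrains insulin release, 3.57 in hepatocytes against 0.230 in beta cells. Gipr, the receptor for the incretin GIP, stood at 2.27 in hepatocytes against 0.314 in beta cells, and Vipr1, a receptor for vasoactive intestinal peptide, at 3.15 in hepatocytes against 0.350 in beta cells. Ffar3, a receptor for short-chain fatty acids, was marked in hepatocytes alone, at 2.47 in hepatocytes against 0.178 in beta cells with 0.230 in endoderm. Its neighbour in function Ffar2 lay just inside the limits at a difference of 1.00.

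Neural adhesion and guidance genes that islets share with neurons showed fewer calls, 7 of 35 higher and 1 lower, and a median of 0.25. These counts stand beside 10.7% higher and 9.70% lower over all genes. Unc5a, a netrin receptor, stood at 2.56 in hepatocytes against 0.691 in beta cells, and Ncam1 at 1.74 in hepatocytes against 0.498 in beta cells. Cadm1, an adhesion molecule, was lower at 0.598 in hepatocytes against 1.38 in beta cells. Of the higher genes, Nlgn3 and L1cam are X-linked.

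Hormones of the other islet cells were not called in either direction. Gcg, glucagon, had ratios of 1.52 in hepatocytes against 1.89 in beta cells, and Sst, somatostatin, of 3.59 in hepatocytes against 4.47 in beta cells. Ppy, pancreatic polypeptide, had ratios of 1.73 in hepatocytes against 1.52 in beta cells, and Pyy, peptide YY, of 9.67 in hepatocytes against 2.42 in beta cells. Ghrl, ghrelin, was lower in the ranks, at 0.274 in hepatocytes against 0.607 in beta cells. The first 4 of these genes were at or above the 75th percentile in both profiles, where no call is possible. Over all beta-side genes taken once, 82 of 193 were higher in hepatocytes (42.5%) and 4 were lower, with a median difference of 0.84, and without the X-linked genes 74 of 184 were higher. These counts, like those of the separate beta-side lists, stand beside 10.7% higher and 9.70% lower over all genes. Without the X-linked stretch, the share of higher genes over all genes was 8.53%.

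Beta cells keep a set of widely expressed genes silent, known as disallowed genes, since their products would disturb glucose-controlled secretion. Of 25 such genes, 16 were lower in hepatocytes (64.0%, beside 9.70% over all genes) and none higher, and the median difference was -1.65. The median ratio was 1.92 in beta cells, 0.462 in hepatocytes and 0.653 in endoderm. Igfbp4, a binding protein of insulin-like growth factors, had ratios of 0.0544 in hepatocytes against 1.77 in beta cells, and Mgst1, a microsomal glutathione transferase, 0.146 in hepatocytes against 2.27 in beta cells. Zfp36l1, an RNA-binding protein that destabilizes messages, stood at 0.264 in hepatocytes against 3.76 in beta cells, with 0.216 in endoderm, Acot7, an acyl-CoA thioesterase, at 0.550 in hepatocytes against 4.67 in beta cells, and Cxcl12, a chemokine, at 0.412 in hepatocytes against 4.11 in beta cells. The beta cell ratio was the highest of the 3 profiles for each of these genes. The window of Igfbp4 (chr11:99040994-99041293, plus strand) is shown as the start of a gene with more of the mark in beta cells than in both other profiles, with CG in capitals.
Igfbp4: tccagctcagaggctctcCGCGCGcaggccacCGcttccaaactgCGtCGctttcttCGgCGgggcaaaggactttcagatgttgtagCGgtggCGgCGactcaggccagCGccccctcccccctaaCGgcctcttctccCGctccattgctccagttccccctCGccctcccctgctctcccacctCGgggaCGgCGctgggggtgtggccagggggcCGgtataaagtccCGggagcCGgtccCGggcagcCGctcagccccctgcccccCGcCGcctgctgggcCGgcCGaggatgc
It held 27 CG dinucleotides, a number reached by 15.5% of windows, and the letters TATAAA. The disallowed genes had a median of 21 CG over the 22 of 25 with a window.

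Metabolic enzymes that exist in liver and non-liver forms split in part along that line. Liver-type isozymes were lower at 10 of 16 with none higher, while non-liver isozymes were lower at 5 of 28 and higher at 3, beside shares over all genes of 9.70% and 10.7%. The higher genes were Pkm, the pyruvate kinase of most non-liver tissues, at 3.62 in hepatocytes against 0.510 in beta cells, Ckb, brain creatine kinase, at 6.46 in hepatocytes against 1.09 in beta cells, and Ckm, muscle creatine kinase, at 2.99 in hepatocytes against 1.03 in beta cells. Among the lower genes were Ldha, a lactate dehydrogenase known to be low in beta cells, at 0.482 in hepatocytes against 3.55 in beta cells, and Hk1, a low-Km hexokinase, at 1.09 in hepatocytes against 3.43 in beta cells. The non-liver forms thus fell on both sides, and their median difference was -0.02.

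Among the 12 genes that were most strongly lower in hepatocytes, the first were Id1 and Id3, inhibitors of basic helix-loop-helix factors that respond to bone morphogenetic protein signals. Id1 had ratios of 0.0417 in hepatocytes against 9.82 in beta cells, and 0.437 in endoderm, and Id3 had ratios of 0.0147 in hepatocytes against 7.04 in beta cells, and 0.238 in endoderm. The difference was -6.45 for Id1 and -6.37 for Id3, and of the 3 profiles both genes were highly marked in that of beta cells alone. Their relative Id2 was not called, at 0.412 in hepatocytes against 0.819 in beta cells, and Id4 was marked in both, at 3.22 in hepatocytes against 1.56 in beta cells. Ifitm3, an antiviral membrane protein, stood at 0.0158 in hepatocytes against 6.09 in beta cells, Cxcl1, a neutrophil chemokine, at 0.0221 in hepatocytes against 3.15 in beta cells, and Frat1, a positive regulator of Wnt signalling, at 0.132 in hepatocytes against 6.75 in beta cells. Frat2, its neighbouring relative, had ratios of 0.183 in hepatocytes against 4.85 in beta cells. Lrg1, Apoa5 and Hhex, described above, were also among the 12, with Atad3aos (0.0368 and 3.01), Rnf186 (0.0131 and 2.01) and Mettl7b (0.0567 and 2.77).

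Of the 12 genes most strongly higher in hepatocytes, 7 were X-linked and 5 were not. The 5 others were led by C2cd4b, a gene that pancreatic islets express, at 10.4 in hepatocytes against 0.0932 in beta cells, with 2.48 in endoderm. Lrrc10b stood at 5.61 in hepatocytes against 0.118 in beta cells, with 12.5 in endoderm, and Eva1b at 2.90 in hepatocytes against 0.0174 in beta cells. Sprr4 (4.15 and 0.0781) and Sprr2j-ps (3.47 and 0.0529) belong to a family of epidermal barrier genes. The X-linked genes were H2afb2 (6.51 and 0.0215), Cldn34-ps (5.63 and 0.0328), Bex1 (8.35 and 0.0913), Nap1l2 (4.41 and 0.0612), Rnf113a1 (4.15 and 0.0712), H2bfm (2.61 and 0.0282) and F8a (4.19 and 0.0915). In all 12 the beta cell ratio was at or under 0.118.

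**Figure D3:**
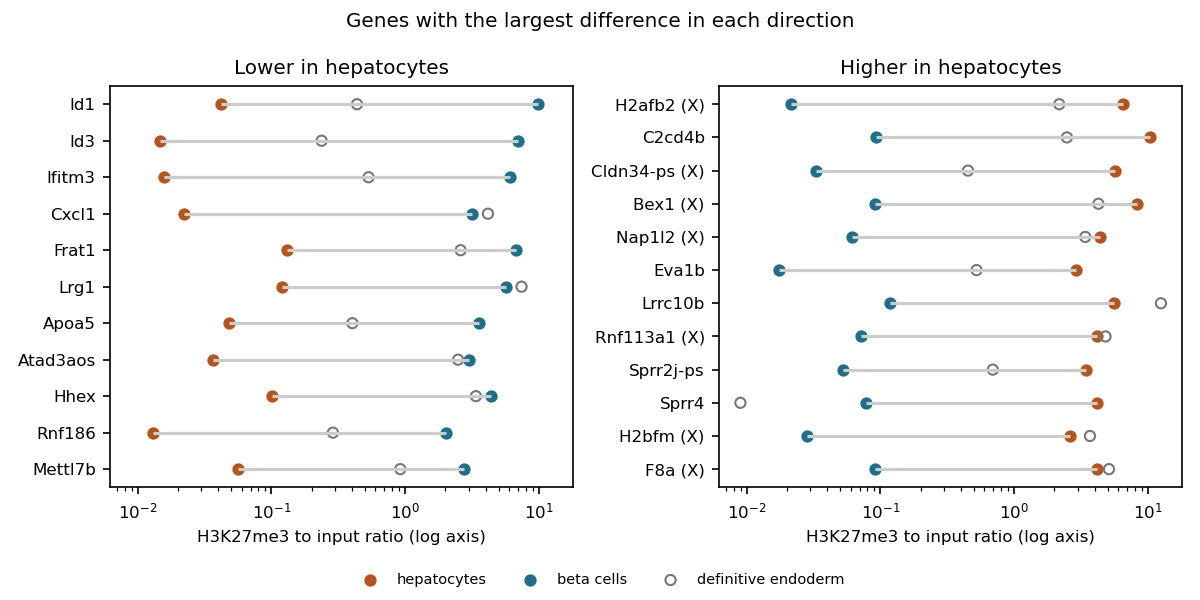
Ratios of H3K27me3 to input (log axis) in hepatocytes, beta cells and definitive endoderm for 11 genes lower and 12 genes higher in hepatocytes with the largest differences, where (X) marks genes of the X-linked stretch. Endoderm lies near the beta cell value for Hhex and far below it for Id1 and Id3.

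X-linked genes stood apart as a block. The stretch of 946 genes spanned by listed X-linked genes, in RefSeq gene order, held 581 genes higher in hepatocytes (61.4%) and 1 lower, 4921511C20Rik at 0.812 in hepatocytes against 4.58 in beta cells. The median ratio was 2.10 in hepatocytes, 0.741 in beta cells and 1.78 in endoderm. The median difference was 1.40, against -0.08 for all other genes, and 897 of the 946 genes had a difference above 0. The higher hepatocyte ratios covered ordinary cell-maintenance genes as well as tissue genes. Pgk1, a glycolytic enzyme, stood at 2.37 in hepatocytes against 0.496 in beta cells and Hprt, a purine salvage enzyme, at 1.72 in hepatocytes against 0.671 in beta cells. Xist, the RNA that coats an inactive X chromosome, was not called, at 0.468 in hepatocytes against 0.822 in beta cells. On the Y chromosome, Ddx3y had ratios of 1.24 in hepatocytes against 0.286 in beta cells, Uty of 0.999 in hepatocytes against 0.415 in beta cells and Eif2s3y of 1.16 in hepatocytes against 0.494 in beta cells, all higher in hepatocytes. Zfy1 (0.930 and 0.973), Usp9y (1.05 and 1.10) and Sry (0.918 and 0.557) were not called. The Sry value of 0.918 was the most frequent hepatocyte ratio, shared by 44 genes. Several Y-linked hepatocyte ratios lay near it, and whether they rest on covered sequence was not tested. The sex of the donors was not given in the sources used here, and its part in the X-linked difference was not tested. Without the stretch, 1897 of 22231 genes were higher (8.53%) and 2248 were lower (10.1%), so that the lower genes then outnumbered the higher.

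**Figure D4:**
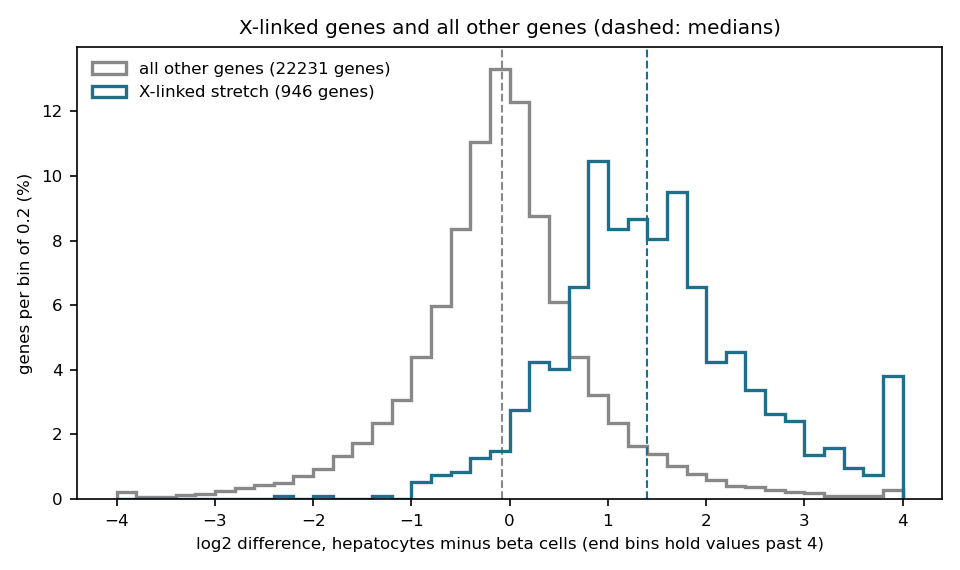
Share of genes (vertical, %) by log2 difference, hepatocytes minus beta cells (horizontal, bins of 0.2 with values past 4 in the end bins), for the 946 genes of the X-linked stretch and the 22231 other genes. Dashed lines mark the medians of 1.40 and -0.08.

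Developmental regulators that Polycomb marks in many tissues were mostly highly marked in both profiles. The Hox genes, which set position along the body, numbered 39 and lay at or above the 75th percentile in both profiles. Of these, 38 were in the top 5% of both, with median ratios of 6.49 and 5.89. None was called, which the rank limit fixes at this level, and their differences ran from -1.13 to 1.06. Of 57 neural transcription factors, 48 were in the top 5% of both. The 1 gene called among them was Olig1, a factor of oligodendrocytes, which stood at 0.855 in hepatocytes against 5.85 in beta cells. Of 48 mesoderm and muscle factors, 27 were in the top 5% of both. Msgn1, a factor of presomitic mesoderm, was higher in hepatocytes at 4.31 in hepatocytes against 0.215 in beta cells, and Gata4, which also acts in endoderm, was lower at 0.426 in hepatocytes against 1.97 in beta cells. Over all genes, 561 (2.42%) were in the top 5% of both profiles, and 95.2% of these were at or above the 75th percentile in endoderm.

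Exchanges between the top 5% of 1 profile and the genes below the median of the other were fewer. In the top 5% in hepatocytes but below the median in beta cells were 216 genes (0.932%), of which 78 lay on the X-linked stretch, and 71.8% of the 216 were at or above the 75th percentile in endoderm. The reverse held for 117 genes (0.505%), none of them on the stretch, of which 50.4% reached that percentile in endoderm. The hepatocyte-marked set holds Pdx1, Nkx2-2, Nkx6-1, Pax6, Insm1, Mafa and Kcnj11. The beta-marked set holds Hhex, Cebpa, Id1, Id3, Apoa5, Lrg1, Cyp8b1, Nags, Igfbp1, Saa1 and Ldha. The median endoderm ratio was 1.78 on the X-linked stretch and 0.686 for all other genes. The 71.8% thus includes an X-linked part that the 50.4% lacks, and the share without the stretch was not computed.

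Among 7 cell cycle inhibitors, 1 was higher in hepatocytes and 1 lower, beside 10.7% and 9.70% over all genes. Cdkn2b was higher, at 4.48 in hepatocytes against 0.193 in beta cells. Cdkn1b was lower, at 0.160 in hepatocytes against 1.10 in beta cells. Cdkn2a, the neighbour of Cdkn2b, was highly marked in both, at 5.75 and 5.00, and its endoderm ratio was 6.20. The locus thus had high ratios at both genes in hepatocytes and at Cdkn2a alone in beta cells. Cdkn1c, an imprinted inhibitor, stood at 2.32 in hepatocytes against 3.99 in beta cells, Cdkn1a at 0.570 in hepatocytes against 1.06 in beta cells, Cdkn2c at 0.274 in hepatocytes against 0.368 in beta cells and Cdkn2d at 0.258 in hepatocytes against 0.333 in beta cells. Of the D-type cyclins, which drive cells into the cycle, Ccnd1 and Ccnd2 had opposite orders. Ccnd2 stood at 2.04 in hepatocytes against 0.336 in beta cells, and Ccnd1 at 0.371 in hepatocytes against 1.22 in beta cells. Of 30 Polycomb and Trithorax genes, 3 were higher in hepatocytes and 1 lower, no more than the 10.7% and 9.70% over all genes. The higher genes were Cbx6 (1.44 and 0.405), Bmi1 (1.43 and 0.590) and the X-linked Rbbp7 (1.73 and 0.222). The lower gene was Pcgf1 (0.530 and 1.74).

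Genes of the growth-restraining Hippo pathway and its YAP targets were lower at 5 of 26 (19.2%) and higher at 3 (11.5%), beside 9.70% and 10.7% over all genes. With a pseudocount 10 times larger, 2 were lower. Cyr61, a secreted YAP target, stood at 0.600 in hepatocytes against 4.65 in beta cells, and Ajuba, a LIM protein, at 0.854 in hepatocytes against 5.36 in beta cells. S100a6 was the largest difference in the other direction, at 2.24 in hepatocytes against 0.450 in beta cells.

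Duct markers, which bile duct cells and pancreatic duct cells share, were higher in hepatocytes at 7 of 15 (46.7%) and lower at 1, beside 10.7% and 9.70% over all genes. Cldn4, a tight junction protein, stood at 2.68 in hepatocytes against 0.0827 in beta cells, and the keratins Krt19 and Krt7 at 4.02 in hepatocytes against 0.390 in beta cells and at 2.30 in hepatocytes against 0.501 in beta cells. Epcam, an epithelial adhesion protein that islet cells express too, stood at 2.69 in hepatocytes against 0.472 in beta cells, and Spp1 at 2.02 in hepatocytes against 0.288 in beta cells. The summed ratio over the duct list was 33.0 in hepatocytes and 18.8 in beta cells. Acinar markers were lower at 6 of 22 and higher at 2, with sums of 32.1 and 39.8. These lists overlap with others. The lower acinar markers include Nr5a2, also a listed hepatic factor, and Gata4, also a listed mesoderm and muscle factor. Bhlha15, higher on the acinar list, and Sox4, higher on the duct list, are also listed endocrine factors. Onecut1, the lower duct marker, is also a listed hepatic factor. The acinar zymogen gene Ctrb1 was marked at 0.611 in hepatocytes against 2.81 in beta cells and the acinar factor Bhlha15 at 1.08 in hepatocytes against 0.236 in beta cells. Endothelial markers gave no call among 20 genes, with sums of 39.7 and 38.9. Blood and Kupffer cell markers gave 3 higher and 3 lower of 27, 11.1% each way and near the shares over all genes, with sums of 42.4 and 37.1, and fibroblast and stellate markers gave 1 higher and 1 lower of 24, with sums of 54.0 and 61.6. Many endothelial and fibroblast markers, such as Kdr and Twist1, were at or above the 75th percentile in both profiles, where no call is possible. The lack of calls there therefore cannot show that those markers did not differ. No marker was listed at 0. The part of admixed cells in any difference was not tested.

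Some of the differences extended over gene clusters. Outside the X-linked stretch, 39.2% of the lower genes and 35.6% of the higher genes had a direct neighbour with the same call, in RefSeq gene order. Over all genes outside the stretch, 10.1% were lower and 8.53% higher. The share with such a neighbour in a random gene order was not computed. The longest run was 22 genes of the protocadherin gamma cluster, cell surface adhesion genes used by neurons, from Pcdhga1 to Pcdhgc5, all higher in hepatocytes. Their median ratio was 2.74 in hepatocytes, 0.661 in beta cells and 3.09 in endoderm. These genes share exons and overlap, so their values are not separate measurements. The genes on either side, Taf7 (0.491 and 0.438) and Diaph1 (0.319 and 0.546), were not called.

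Among the lower genes, 4 runs of 7 genes were the longest. The Cyp2d run of drug-metabolizing cytochromes, from Cyp2d9 to Cyp2d26, had median ratios of 0.337 in hepatocytes against 1.74 in beta cells. The carboxylesterase run from Fam96b to Ces2f had 0.411 and 1.39, and the run from Apol10a to Apol11b 0.653 and 1.91. The Ugt1a run, bilirubin and drug conjugating enzymes from Ugt1a10 to Ugt1a2, had 0.409 and 0.921, and its genes also overlap through shared exons. A run of 6 genes from Serpina1b to Serpina11, the alpha-1 antitrypsin cluster, had 0.257 and 1.36. The runs ended at different kinds of border. Beyond Cyp2d26 the next gene, Tcf20, had ratios of 0.671 in hepatocytes against 0.480 in beta cells, whereas beyond Serpina11 the serpin genes went on with more of the mark in beta cells, as at Serpina12 with 0.397 in hepatocytes against 2.30 in beta cells. The direct neighbours share the local chromatin, and cluster members with similar sequence may share reads, so these counts are not counts of independent events.

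**Figure D5:**
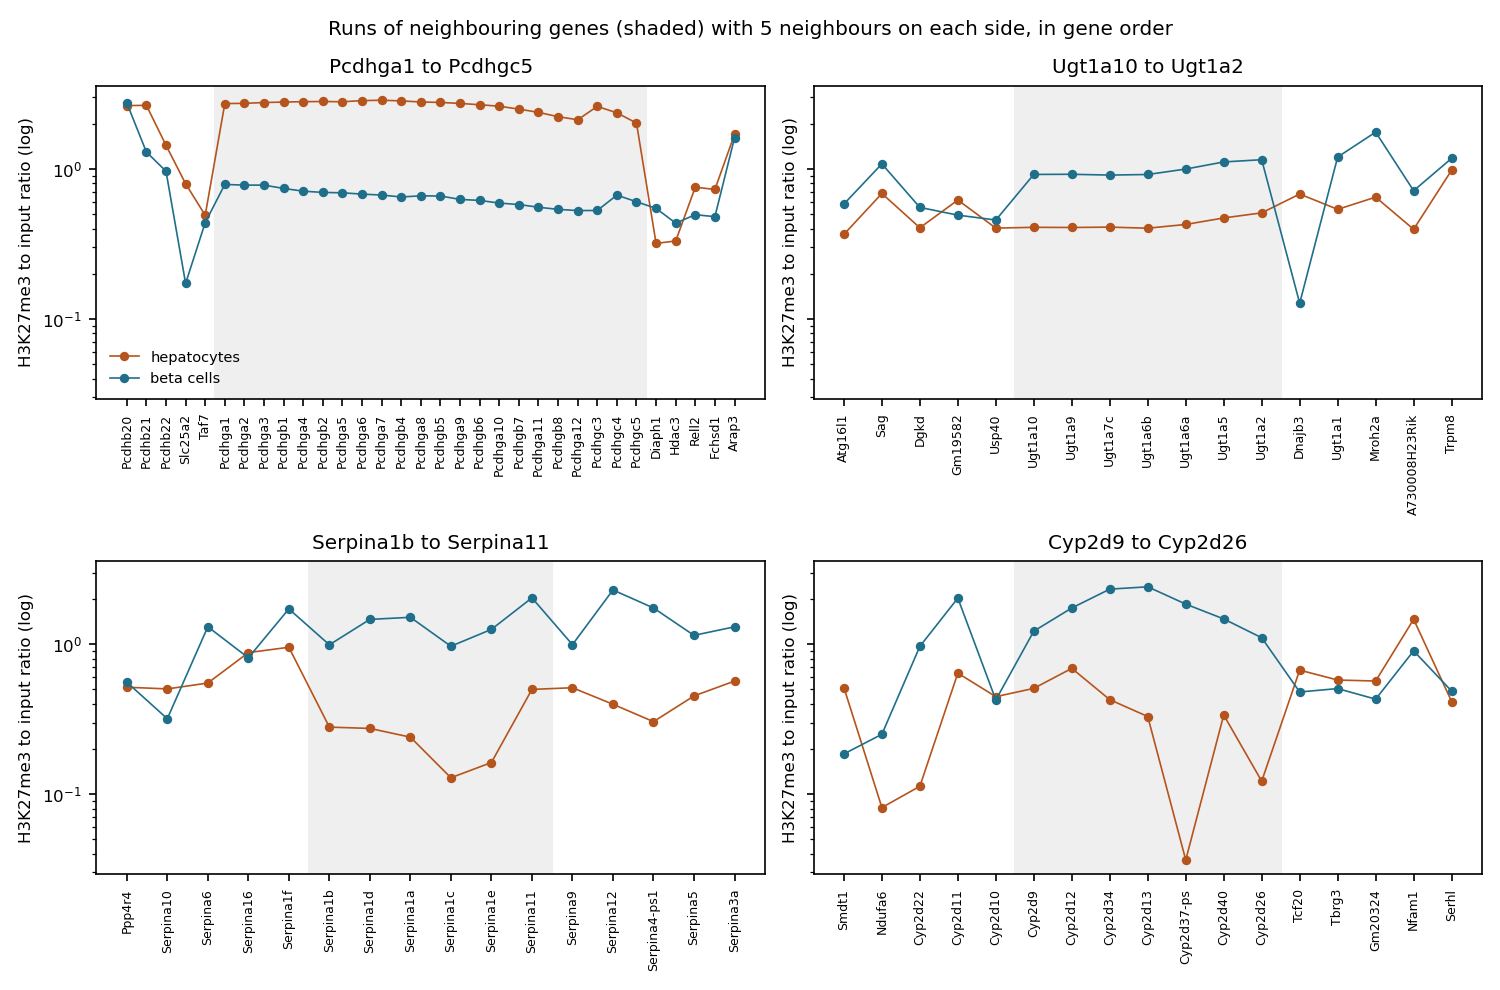
Ratios of H3K27me3 to input (log axis) in hepatocytes and beta cells along 4 runs of neighbouring genes (shaded), with 5 neighbours on each side, in RefSeq gene order and not to scale. The hepatocyte line lies above the beta cell line across the protocadherin gamma run and below it across the Ugt1a, Serpina1 and Cyp2d runs.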

How the data were processed

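H3K27me3 was measured by ChIP-seq in adult hepatocytes, mature beta cells and definitive endoderm. The values used are linear ratios of H3K27me3 to input per gene, which the authors had quantile-normalized, as the name and columns of the deposited table say. The submitters' processing notes name Bowtie2 2.1.0, bedtools and build mm9. The region measured per gene, any constant added and how the 2 ChIP and 2 input libraries entered were not given in the sources used here, and the depth is unknown. The table gives 1 pooled value per gene and cell type, so the design's test on replicates was replaced by a description.

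Small RNA symbols were removed, and differences were taken on the log2(ratio + 0.0711) scale. The pseudocount is the median ratio, 0.711, divided by 10. Rank percentiles were taken within each column over 23177 genes. Calls needed 1 log2 unit and 25 points. Calculations used Python 3.11.15 with pandas 2.3.3, and were tested on simulated data. Gene order and promoter windows came from RefSeq GRCm38.p6. Of the genes, 23062 matched by symbol or synonym, and no gene coordinate was taken from that assembly other than the windows. CG and motif counts were given for a list only where at least 80% of its genes had a window.

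The genes, the 40 lists and the limits were chosen with earlier results of these data known. Named were, in each direction, the 12 called genes with the largest difference that reached the 75th percentile in 1 of the cell types (without unnamed models and olfactory or vomeronasal receptors), up to 6 called members per list and direction, members against a list's main direction, every member of lists of up to 7 genes, cell type markers, genes at the limits and genes at the ends of runs. Other genes named were chosen after their values were seen. Some genes that this rule names are not reported here, although the counts include them. Promoters were shown for the factors with the largest differences that had a window, and for Lrg1 and Igfbp4, picked after their values were seen. Of the listed symbols, 9 were not found. All 3 values were shared with another gene by 181 genes. Alternatives were other pseudocounts, limits, scalings and filters.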

Additional observations from a re-analysis of the deposited data

How the results depend on the processing

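The counts depended most on the pseudocount and on the limits. With a pseudocount 10 times larger, 1111 genes were higher in hepatocytes and 827 lower, and 79 liver-side genes were lower (171 as reported) and 48 beta-side genes higher (82 as reported). With a log2 limit of 1.5, 1489 genes were higher and 1172 lower. With the rank limit alone, 3414 genes were lower. Among genes above the median level, 1429 genes and 91 liver-side genes were lower. With the top 10% in place of the top 5%, exchanges between the profiles numbered 502 on the hepatocyte-marked side and 270 on the beta-marked side. Leaving out the X-linked stretch, an alternative chosen after seeing the data, lowered the hepatocyte-marked exchanges to 138 and the share of higher genes among all calls from 52.4% to 45.8%. Of the other counts per list, direction and alternative, 677 were within 1.5 times the reported count and 119 were not. The balance of higher against lower members turned for the non-liver isozymes (3 higher and 5 lower as reported, 3 and 2 with the larger pseudocount, 6 and 5 with the rank limit alone), for the Polycomb and Trithorax genes (3 and 1, then 4 and 5 with the rank limit alone) and for the neural transcription factors (0 and 1, then 2 and 1 with the log2 limit alone). The genes chosen for the largest differences kept their call in all 232 combinations of gene and alternative that could be computed. That outcome was largely fixed by the choice, since the smallest of these differences was 4.47 in size, far past the limits. With the larger pseudocount all 24 differences shrank by over 1.5 times, as for Id1 from -6.45 to -3.81 and Apoa5 from -4.92 to -2.49. No paired analysis was possible because the table holds 1 pooled value per cell type, and for the same reason no replicate could be left out. The depth behind each ratio is unknown, so the reliability of low ratios, and of the largest differences that rest on them, could not be judged.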

Other observations

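Gene families counted by symbol also held many of the called genes, and their shares stand beside 10.7% higher and 9.70% lower over all genes. Of 1125 olfactory receptor genes, 272 were higher in hepatocytes (24.2%) and 189 lower (16.8%), with a median difference of -0.06, and of 211 vomeronasal type 1 receptor genes, 75 were higher (35.5%) and 25 lower (11.8%). These chemosensory genes had median ratios in hepatocytes of 1.10 and 1.10, and the part of short, repeated or poorly covered sequence in their spread was not tested. Of 69 histone cluster genes, 22 were higher in hepatocytes (31.9%) and 5 lower (7.25%), and the median ratios over all 69 were 0.610 in hepatocytes and 0.380 in beta cells. A run of 5 of the higher histone genes, from Hist1h3h to Hist1h2ak, had median ratios of 1.26 and 0.227. Of 98 potassium channel genes, 20 were higher (20.4%) and 2 lower (2.04%), and of 54 keratin genes 11 were higher (20.4%) and 1 lower (1.85%). Of 32 claudin genes 10 were higher and 3 lower, but 10 of the 32 lie on the X-linked stretch, and of the 22 others 5 were higher and 3 lower. Drug-metabolizing families pointed the other way, with 30 of 59 cytochrome P450 family 2 genes (50.8%), 12 of 20 UDP-glucuronosyltransferases (60%) and 10 of 19 glutathione transferases (52.6%) lower in hepatocytes. The lower UDP-glucuronosyltransferases include the 7 genes of the Ugt1a run, which share exons and are not separate measurements. The differences of these 7 genes ran only from -1.13 to -1.03, just past the limit. The clade A serpins, plasma protease inhibitors, were lower at 16 of 26 (61.5%).

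Several genes outside the lists were in the top 5% of 1 profile and below the median of the other, picked here after their values were seen. Below the median can still mean a middling rank, as for Gas1 at percentile 44.2 in hepatocytes. Nr2f2, a nuclear receptor of mesenchyme and endothelium, had ratios of 0.283 in hepatocytes against 4.78 in beta cells, Tgif1, a homeobox repressor, 0.246 in hepatocytes against 3.88 in beta cells, and Cyp26a1, which breaks down retinoic acid, 0.330 in hepatocytes against 4.77 in beta cells. Fst, follistatin, which binds activins, stood at 0.575 in hepatocytes against 5.63 in beta cells, and Gas1, a growth arrest protein, at 0.615 in hepatocytes against 8.75 in beta cells. In the other direction, Cldn7, a tight junction protein, stood at 4.90 in hepatocytes against 0.238 in beta cells, and Scd2, a fatty acid desaturase, at 4.20 in hepatocytes against 0.368 in beta cells, with 0.314 in endoderm. Paupar, a long noncoding RNA beside Pax6, stood at 4.54 in hepatocytes against 0.142 in beta cells, close to the values of Pax6 at 4.74 in hepatocytes against 0.265 in beta cells. Kcnh2, a potassium channel, stood at 3.67 in hepatocytes against 0.332 in beta cells, and Inha, an inhibin subunit, at 4.72 in hepatocytes against 0.505 in beta cells, the latter within a run of 6 higher genes from Chpf to Slc4a3 with median ratios of 4.41 in hepatocytes against 0.463 in beta cells.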
